A study of Mus musculus with 8 samples.

Results

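The cyclic AMP (cAMP) signalling genes described here are 38 mouse genes chosen by name, from the enzymes that make and degrade cAMP to the transcription factors that answer to it. They comprise 9 adenylyl cyclases, 2 catalytic and 4 regulatory subunits of protein kinase A (PKA), 12 phosphodiesterases, 2 Epac proteins, 3 CREB family factors, 3 CRTC coactivators and 3 SIK kinases. All 38 were found among the 75078 genes of the count table, and 34 of them were among the 15916 genes that passed a filter on low counts. Polyadenylated RNA was sequenced from aTC1-6, a mouse pancreatic alpha cell line, and each of the 2 groups held 4 libraries. The controls, libraries 31 to 34, carried an empty plasmid, and libraries 45 to 48, called Yy1 libraries here, carried one for overexpression of the zinc finger protein Yy1, which can activate or repress transcription. All wells were transfected 24 h after they were seeded, in a DMEM given as 11 mM, and no harvest time is given in the labels. The line is a clone from a tumour of transgenic mice in which the glucagon promoter drives a viral T antigen, so both groups carry that transgene. Whether the 4 libraries of a group came from separate cultures is not stated, so each p-value reflects only the spread among them, which may be technical. Any handling that differed between the groups cannot be told apart from the plasmid, and in bulk RNA fewer cells with a transcript cannot be told apart from less of it per cell.

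Adenylyl cyclases are membrane enzymes that make cAMP when a receptor activates the stimulatory G protein, and phosphodiesterases break cAMP down again. cAMP frees the catalytic subunits of PKA from the regulatory subunits and also activates Epac, an exchange factor for the small GTPase Rap. PKA phosphorylates CREB, which then recruits coactivators, while SIK kinases hold the CRTC coactivators in the cytoplasm until PKA restrains them. In alpha cells this pathway is known to drive glucagon secretion and transcription of the glucagon gene.

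Summed estimated counts per library ran from 20679804 to 33347445. The Yy1 plasmid libraries were the deeper group on average (two-sided exact permutation test over 4 against 4 libraries, p = 0.0571). Yy1 itself stood at 175 ± 5.33 CPM (counts per 1e+06 counts) in the controls and rose to 5233 ± 464 CPM in the Yy1 libraries (SD, n = 4). Its log2 fold change was 4.90 (SE 0.0619; edgeR quasi-likelihood test, adjusted p = 7.38e-24), so the labels matched the transfected gene. All 13 alpha cell markers checked had at least 1 CPM in all 8 libraries, and Gcg, which encodes proglucagon, stood at 21228 ± 547 and 21291 ± 372 CPM (SD, n = 4). Of 9 beta cell markers, Ins1, Ins2 and Ucn3 had 0 counts in all libraries, while Nkx6-1 and G6pc2 were the 2 with at least 1 CPM in each library. Markers of acinar and ductal cells summed to between 15.5 and 16.7 CPM in the controls and between 16.7 and 19.4 CPM in the Yy1 libraries, without overlap before rounding. Of these 10 markers edgeR called 0, beside 0.515% of all tested genes. Cela1, Sox9 and Spp1 were the 3 with at least 1 CPM in each library, and Prss2, Amy2b, Ptf1a and Cftr had 0 counts. The part of this difference in the results on the members was not tested. Markers of stromal, endothelial and immune cells summed to between 3.92 and 6.29 CPM in the controls and between 4.88 and 6.26 CPM in the Yy1 libraries.

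The line transcribed members of each of the 8 families, and in 5 of the 8 families a single gene held most of the transcript in all 8 libraries, with either length and with none. CPM values count reads, so a long transcript yields more of them. Levels were therefore compared between genes as CPM per kb, with the median length of a gene's coding transcripts as the main length and its longest coding transcript as the alternative. Counts per gene do not show which transcript is used, so values with both lengths are given where they differ. Median and longest were 0.871 and 4.965 kb for Prkar2a, 0.795 and 2.637 kb for Prkar1b, and 0.577 and 2.365 kb for Atf1. For Adcy6 they were 2.16 and 6.04 kb. Short annotated transcripts lower the median and so raise the value per kb, and the shares with the median length may be overstated for such genes. Of the 34 members that passed the filter, 25 had at least 10 CPM on average with the empty plasmid, a bound chosen after the values were seen. The other 9 that passed ranged down to 0.300 CPM for Adcy1. Adcy4, Adcy5, Adcy8 and Prkar1a did not pass.

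**Figure D1:**
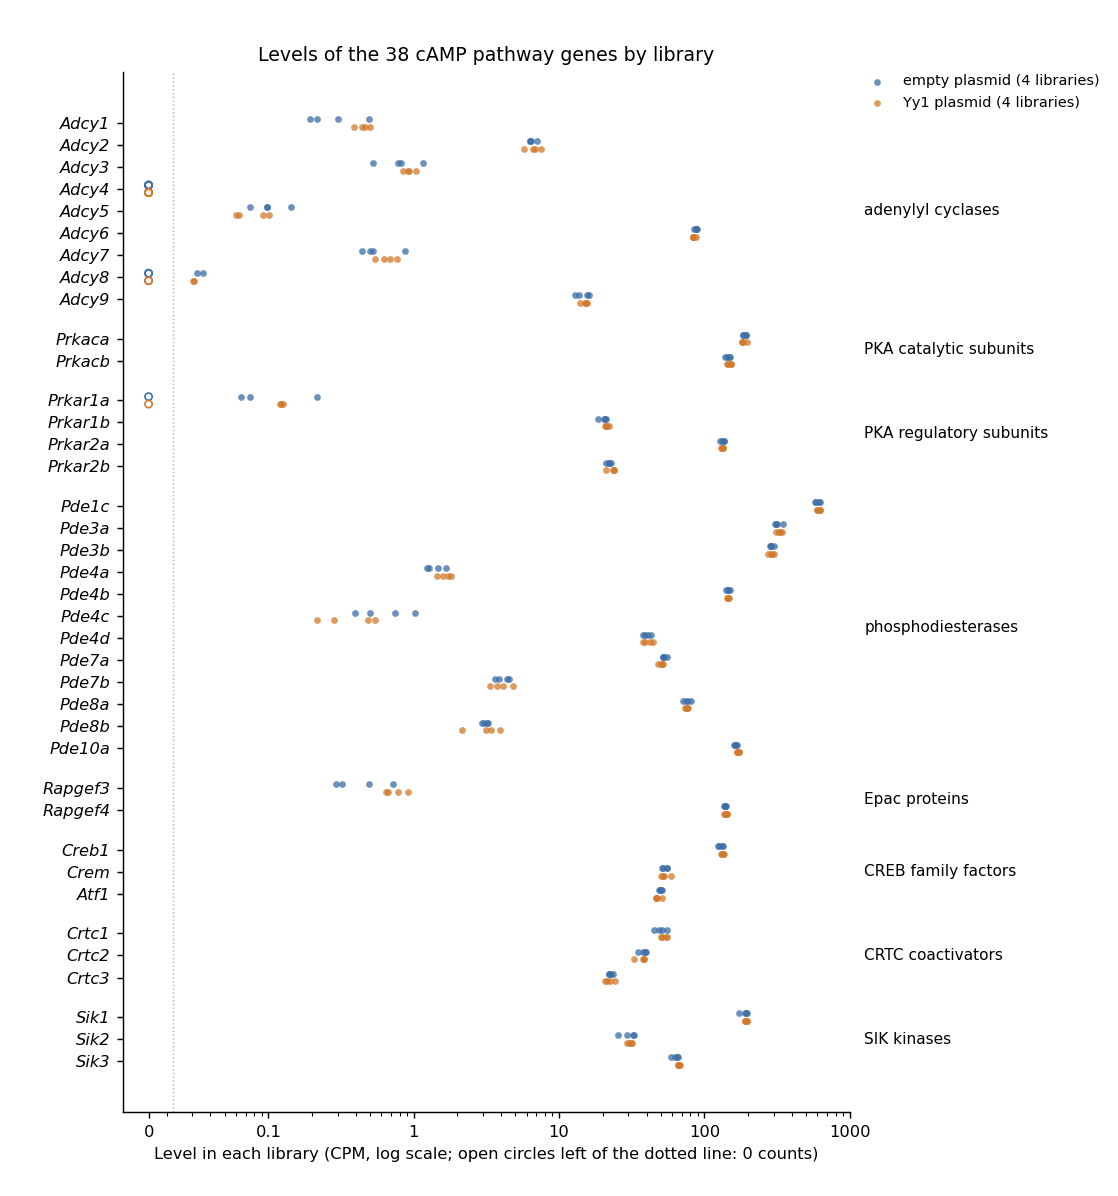
Level of each of the 38 genes in each of the 8 libraries, in CPM on a log scale, grouped by family. Points are single libraries (blue, empty plasmid; orange, Yy1 plasmid) and open circles are libraries with 0 counts. Pde1c lies highest, near 600 CPM, Prkar1a lies far below the other regulatory subunits of PKA, and the groups overlap for each gene that passed the filter.

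Among the adenylyl cyclases, Adcy6, a cyclase that calcium inhibits, dominated. It stood at 87.3, 89.0, 84.4 and 87.9 CPM in libraries 31 to 34 and at 83.2, 87.6, 84.0 and 83.5 CPM in libraries 45 to 48. The 4 empty plasmid libraries and the 4 Yy1 plasmid libraries thus overlapped. Adcy6 made up 88.8 ± 0.488% of the summed CPM per kb of the 9 cyclases in the controls and 88.1 ± 0.327% in the Yy1 libraries (SD, n = 4). With the longest transcript lengths its share was 75.1 ± 0.889% and 73.9 ± 0.631%. Adcy9, a widely expressed cyclase, came next with 3.23 ± 0.334 CPM per kb, followed by Adcy2, which G protein beta-gamma subunits stimulate, with 1.55 ± 0.0829 CPM per kb (SD, n = 4, empty plasmid). The libraries of Adcy6, Adcy9 and Adcy2 did not overlap with either length, so this order held in all 8 libraries. Adcy3 and Adcy7 both stayed under 1.2 CPM in every library, and their values per kb overlapped. Adcy1 and Adcy8, both stimulated by calcium and calmodulin, had between 6 and 16 counts and between 0 and 1 count per library. Adcy5, the closest relative of Adcy6, had between 2 and 4 counts per library, and Adcy4 had 0 in all 8. With 0 counts, a level of up to 3 counts remains possible, which is 0.145 CPM at the lowest depth and 0.090 CPM at the highest, for counting error only.

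Both catalytic subunits of PKA were transcribed at a high level. Prkaca, the alpha subunit, stood at 184, 192, 194 and 185 CPM in libraries 31 to 34 and at 182, 182, 196 and 185 CPM in libraries 45 to 48. Prkacb, the beta subunit, averaged 145 ± 5.64 CPM in the controls and 148 ± 4.10 CPM in the Yy1 libraries (SD, n = 4). Per kb, Prkaca exceeded Prkacb in all 8 libraries, by 2.84 ± 0.157 times in the controls and 2.74 ± 0.165 times in the Yy1 libraries (SD, n = 4). With the longest lengths the ratio was 2.49 ± 0.138 and 2.40 ± 0.145. The ratio thus differed between the groups by less than 1 SD of the replicates.

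The regulatory subunits, which bind and silence the catalytic ones, were mostly of type II. Prkar2a, whose protein is anchored by AKAP proteins, stood at 132, 128, 136 and 137 CPM in libraries 31 to 34 and at 130, 132, 135 and 135 CPM in libraries 45 to 48. It held 82.5 ± 0.841% of the summed CPM per kb of the 4 regulatory genes with the empty plasmid, or 65.5 ± 1.18% with the longest lengths (SD, n = 4). Prkar1b, a type I subunit known mainly from neurons, averaged 20.2 ± 1.04 CPM, and Prkar2b, the type II subunit of neurons and endocrine cells, averaged 22.0 ± 0.695 CPM (SD, n = 4, empty plasmid). Per kb, Prkar1b lay above Prkar2b in all 8 libraries with both lengths, although with the longest lengths the ranges of these genes overlapped. Type II subunits together exceeded type I by 6.33 ± 0.430 times with the median lengths and 4.36 ± 0.288 times with the longest (SD, n = 4, empty plasmid). The ratio of regulatory to catalytic transcript cannot be read from these data, since it was 1.34 with the median lengths and 0.354 with the longest.

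Prkar1a, the type I subunit that most tissues express and that acts as a tumour suppressor in endocrine glands, was at or near 0 counts. It had 2, 2, 0 and 6 counts in libraries 31 to 34 and 4, 0, 4 and 4 counts in libraries 45 to 48, or 22 counts over all 8 libraries. No library exceeded 0.215 CPM, and both groups lay at this floor. The genes beside it were examined after this value was seen. In the order of the RefSeq annotation of mouse chromosome 11, Prkar1a sits within 14 consecutive protein-coding genes, from Axin2 to Abca6, of which none had more than 6 counts in any library. These 14 genes summed to 87 counts over all 8 libraries. They include Wipi1, an autophagy protein, with 9 counts in all, Gna13, a G protein alpha subunit, with 10, and Amz2, a metalloprotease, with 7. Arsg, a lysosomal sulfatase, and Fam20a, a pseudokinase of secreted protein phosphorylation, had 0 counts in all libraries. On the Axin2 side the next gene, Cep112, stood at 6.96 ± 0.978 CPM (SD over 8 libraries). Beyond Cep112 lie Apoh, Cacng5 and Cacng1, with 10, 14 and 0 counts over all 8 libraries. Between them Prkca averaged 25.7 CPM and Cacng4 1.03 CPM. On the other side Abca5 averaged 0.419 CPM, with at most 20 counts in a library. Between Abca5 and Sox9 lie Map2k6, Kcnj16, Kcnj2 and Gm11677, with 0, 12, 13 and 9 counts over all 8 libraries. Low counts thus continued beyond Abca6 up to Sox9, which averaged 4.35 CPM. Across all chromosomes 44 runs of at least 14 consecutive protein-coding genes met the same limit of 6 counts, this run included. That limit was the highest count of Prkar1a itself. By length alone the run is thus not singled out, and which genes form the other runs was not examined. Estimated counts depend on the transcript models used, whose release is not given in the sources used here.

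**Figure D2:**
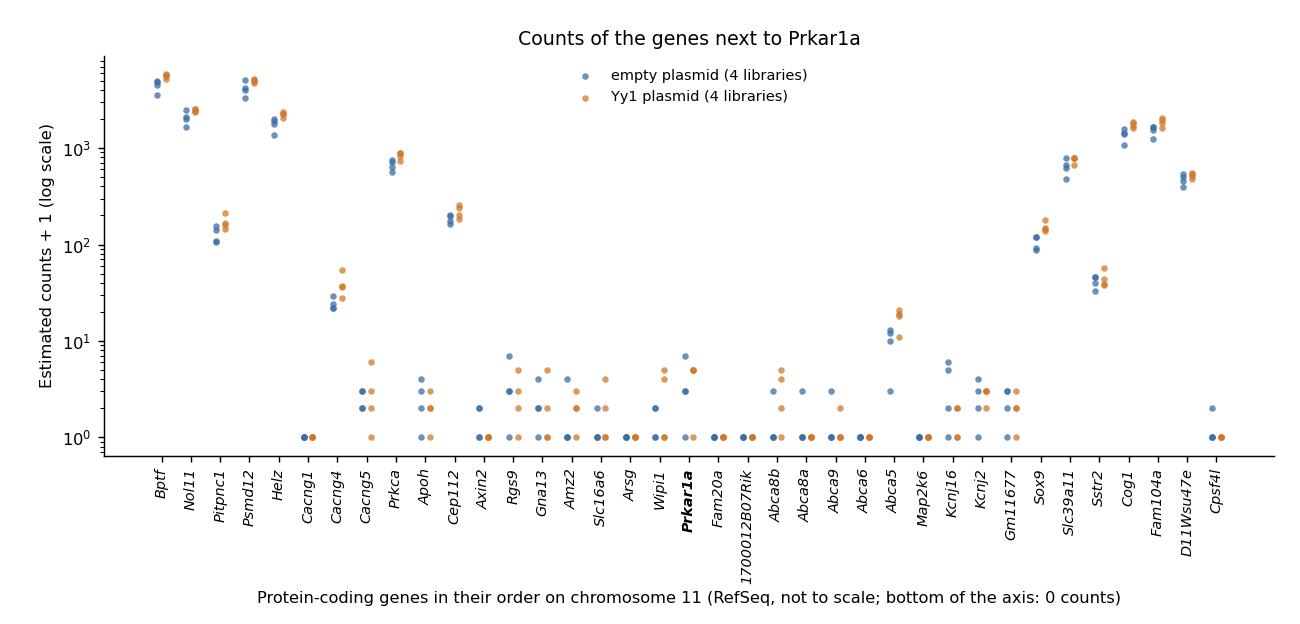
Estimated counts plus 1, on a log scale, for the protein-coding genes around Prkar1a (bold), in their chromosomal order. Each point is 1 library (blue, empty plasmid; orange, Yy1 plasmid). From Axin2 to Abca6 no library exceeds 6 counts in either group, while Cep112 and Prkca on 1 side and Sox9 and Slc39a11 on the other lie higher in all 8 libraries. Between Abca6 and Sox9, Abca5 reaches 20 counts, and Map2k6, Kcnj16, Kcnj2 and Gm11677 do not exceed 5 in any library. Beyond Cep112, Apoh, Cacng5 and Cacng1 also do not exceed 5 in any library.

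Phosphodiesterase transcripts were spread over more genes. Pde1c, which calcium and calmodulin activate and which hydrolyses both cAMP and cGMP, stood at 577, 582, 617 and 623 CPM in libraries 31 to 34. In libraries 45 to 48 it stood at 599, 629, 595 and 628 CPM, so the groups overlapped. Its average placed it at percentile 99.2 of the 15916 tested genes. It held 42.4 ± 0.711% of the summed CPM per kb of the 12 phosphodiesterases with the empty plasmid, or 29.3 ± 0.570% with the longest lengths (SD, n = 4), and was first with both. Pde3b and Pde3a, which cGMP inhibits and of which Pde3b answers to insulin, averaged 291 ± 7.47 and 320 ± 17.2 CPM (SD, n = 4, empty plasmid). Pde3a has a transcript of 12.3 kb in the annotation and Pde3b of 6.57 kb, so per kb the order turned, with 26.0 ± 1.40 for Pde3a and 44.2 ± 1.14 for Pde3b. Pde4b, a cAMP-specific enzyme, had 59.8 ± 1.42 CPM per kb, and Pde10a, which hydrolyses both nucleotides, had 51.2 ± 1.16 (SD, n = 4, empty plasmid). With the median lengths the order was Pde1c, Pde4b, Pde10a, Pde3b and Pde3a, and with the longest it was Pde1c, Pde3b, Pde4b, Pde3a and Pde10a. Within each of these orders neighbouring genes did not overlap in any library, so the choice of length and not the spread of the libraries sets ranks 2 to 4. With the longest lengths Pde10a overlapped with the next gene, Pde8a, and lay above it in 7 of 8 libraries.

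Of the remaining phosphodiesterases, the cAMP-specific Pde8a, Pde7a and Pde4d averaged 76.1 ± 4.11, 53.1 ± 1.87 and 40.0 ± 2.21 CPM with the empty plasmid (SD, n = 4). Per kb with the median lengths, the libraries of Pde8a and Pde4d overlapped. The paralogs Pde7b and Pde8b averaged 4.12 and 3.12 CPM. Pde4a and Pde4c, relatives of Pde4b and Pde4d, averaged 1.42 and 0.664 CPM, so transcripts of the Pde4 group came almost wholly from Pde4b and Pde4d.

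Epac transcript came almost wholly from a single gene. Rapgef4, which encodes Epac2, the form known for its role in secretion from islet cells, averaged 138 ± 1.81 CPM in the controls and 140 ± 3.99 CPM in the Yy1 libraries (SD, n = 4). It held 99.6 ± 0.174% of the CPM per kb of the pair in the controls and 99.4 ± 0.0874% in the Yy1 libraries (SD, n = 4). Rapgef3, which encodes the broadly expressed Epac1, stayed under 1 CPM in all 8 libraries.

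All 3 CREB family factors were present and their order could not be settled. Creb1 averaged 129 ± 4.57 CPM, Crem 53.4 ± 2.0 CPM and Atf1 49.9 ± 0.946 CPM with the empty plasmid (SD, n = 4). With the median lengths Creb1 had 90.4 ± 3.20 and Atf1 86.4 ± 1.64 CPM per kb (SD, n = 4), and their libraries overlapped. With the longest lengths Atf1 came first with 21.1 CPM per kb, ahead of Crem with 18.2, whose libraries overlapped with it, and Creb1 with 15.4, since the coding transcripts of Creb1 range up to 8.36 kb. Crem has 32 annotated coding transcripts, among them activators and the short repressor ICER, which a count per gene does not separate.

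Of the CRTC coactivators, Crtc2, the form known from liver and islets, was highest per kb, with 13.8 ± 0.729 against 8.82 ± 0.718 for Crtc1 and 4.43 ± 0.135 for Crtc3 (SD, n = 4, empty plasmid). The 3 genes did not overlap in any library. By CPM alone Crtc1 led, with 50.1 ± 4.08 against 37.8 ± 2.0 for Crtc2. Sik1, the SIK kinase whose own gene CREB induces, stood at 189, 193, 174 and 197 CPM in libraries 31 to 34 and at 192, 198, 198 and 189 CPM in libraries 45 to 48. It held 62.9 ± 1.68% of the CPM per kb of the SIK kinases, or 72.7 ± 1.47% with the longest lengths (SD, n = 4, empty plasmid). Sik3 came next with 17.3 ± 0.862 CPM per kb and Sik2 last with 7.29 ± 0.805, and this order held in all 8 libraries with both lengths.

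**Figure D3:**
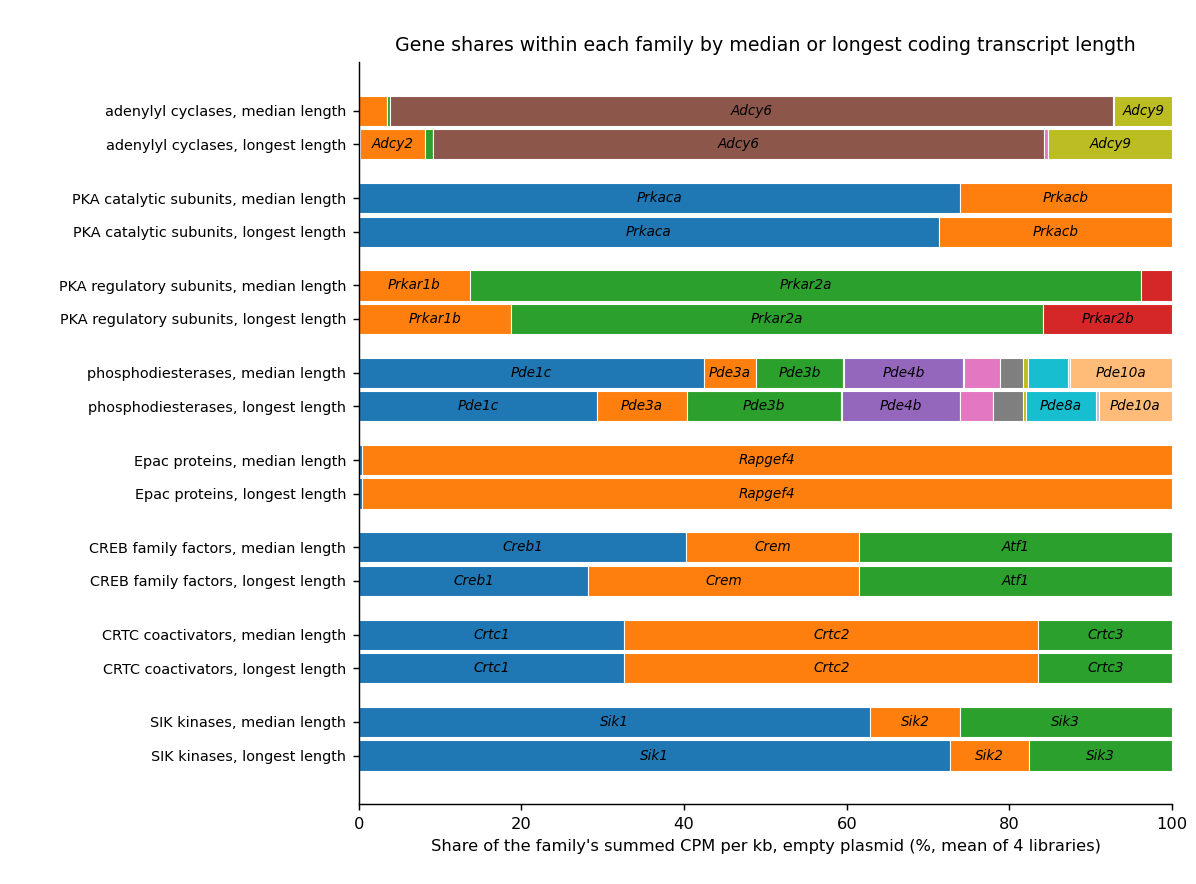
Share of each gene in the summed CPM per kb of its family with the empty plasmid, as the mean of 4 libraries, in percent. Each family has a bar with the median and a bar with the longest coding transcript length, and genes under 6% carry no name. Adcy6, Prkaca, Prkar2a, Pde1c, Rapgef4, Crtc2 and Sik1 lead with both lengths, whereas Creb1 leads its family with the median and Atf1 with the longest length.

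Promoters of the members were searched for the letters that CREB and YY1 are known to bind. The RefSeq promoter table (build GRCm38.p6) covers 250 bases before and 50 after each annotated start and held 58 entries for 30 of the 38 members. Entries of a gene can overlap, and the counts do not show which start the line uses. The full cAMP response element, TGACGTCA, occurred in entries of Prkar1a only, in 2 of 58 (3.45%) against 1.79% of all 32851 promoters. Both entries hold the same site, which is thus counted 2 times. The shorter form TGACG on either strand, which is part of the full element, occurred in 17 of 58 entries (29.3%) against 20.8% of all. The YY1 core ATGGC on either strand occurred in 22 of 58 entries (37.9%) against 40.5% of all. A longer form that contains this core, AANATGGC on either strand, occurred in 9 of 58 entries (15.5%) against 6.05% of all. Those 9 entries belonged to 8 members: Atf1, Crtc1, Pde4b, Pde8b, Prkacb, Prkar1a, Prkar1b and Sik3. Windows of 30 bases are shown because they carry the response element of Prkar1a, the member at or near 0 counts, and the longer YY1 letters of the 6 members with at least 10 CPM. They read 5′ to 3′ on the strand of the gene, and capitals mark the motif, which in Prkacb and Prkar1b lies on the opposite strand.
Prkar1a, full element (chr11:109650889-109650918, plus strand): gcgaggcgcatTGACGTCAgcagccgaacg
Atf1 (chr15:100227729-100227758, plus strand): ccgagctcgccAAGATGGCggcgctcacgt
Crtc1 (chr8:70439543-70439572, minus strand): gaggcggcgagAAGATGGCgacttcgaaca
Pde4b (chr4:102589703-102589732, plus strand): ctcctttttaaAAGATGGCtgtttcccagt
Prkacb (chr3:146770225-146770254, minus strand): attttctctctGCCATTTTgagttattctg
Prkar1b, first site (chr5:139130661-139130690, minus strand): tggtgtgtgctGCCATGTTggtgcattgct
Prkar1b, second site (chr5:139150222-139150251, minus strand): GCCATCTTgagcgcgttgcctgtctccaag
Sik3 (chr9:46012840-46012869, plus strand): gtttcactgcacaacAAGATGGCggcggcg

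The design's single comparison asks what Yy1 overexpression does to the alpha cell transcriptome, here to its cAMP genes. None of the 34 tested members was called at an adjusted p under 0.05 by edgeR, with the adjustment over all 15916 genes. Over all genes edgeR called 0.515%, with 0.496% higher and 0.0188% lower in the Yy1 libraries. DESeq2 and limma-voom also called 0 members, beside 0.336% and 0.534% of all genes they tested. An unadjusted edgeR p under 0.05 was found for 2 members, against 5.42% of all genes. Of these, Rapgef3 was higher in the Yy1 libraries, against 3.23% of all genes, and Pde4c lower, against 2.19%. For 0 members were the libraries of the groups fully separate, against 3.95% of all genes, made up of 2.37% higher and 1.57% lower. The log2 fold changes (Yy1 libraries over controls) were positive for 21 members and negative for 13, while 51.4% of all genes were negative. Their median was 0.03 beside -0.0025 over all genes. The shares called and with an unadjusted p under 0.05 are close to the background, and no member is singled out. Positive signs were more frequent among the members than among all genes, which was not tested.

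The precision was high for the members that carry most of the transcript. For all 25 members with at least 10 CPM the 95% interval of the fold change lay within 1.2-fold in both directions, as it did for 92.6% of all tested genes at that level. Over the 34 tested members this held for 26, against 58.2% of all genes. Adcy2 was the member under 10 CPM that met this bound. Within 1.5-fold lay 28 of the 34, against 76% of all genes.

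**Figure D4:**
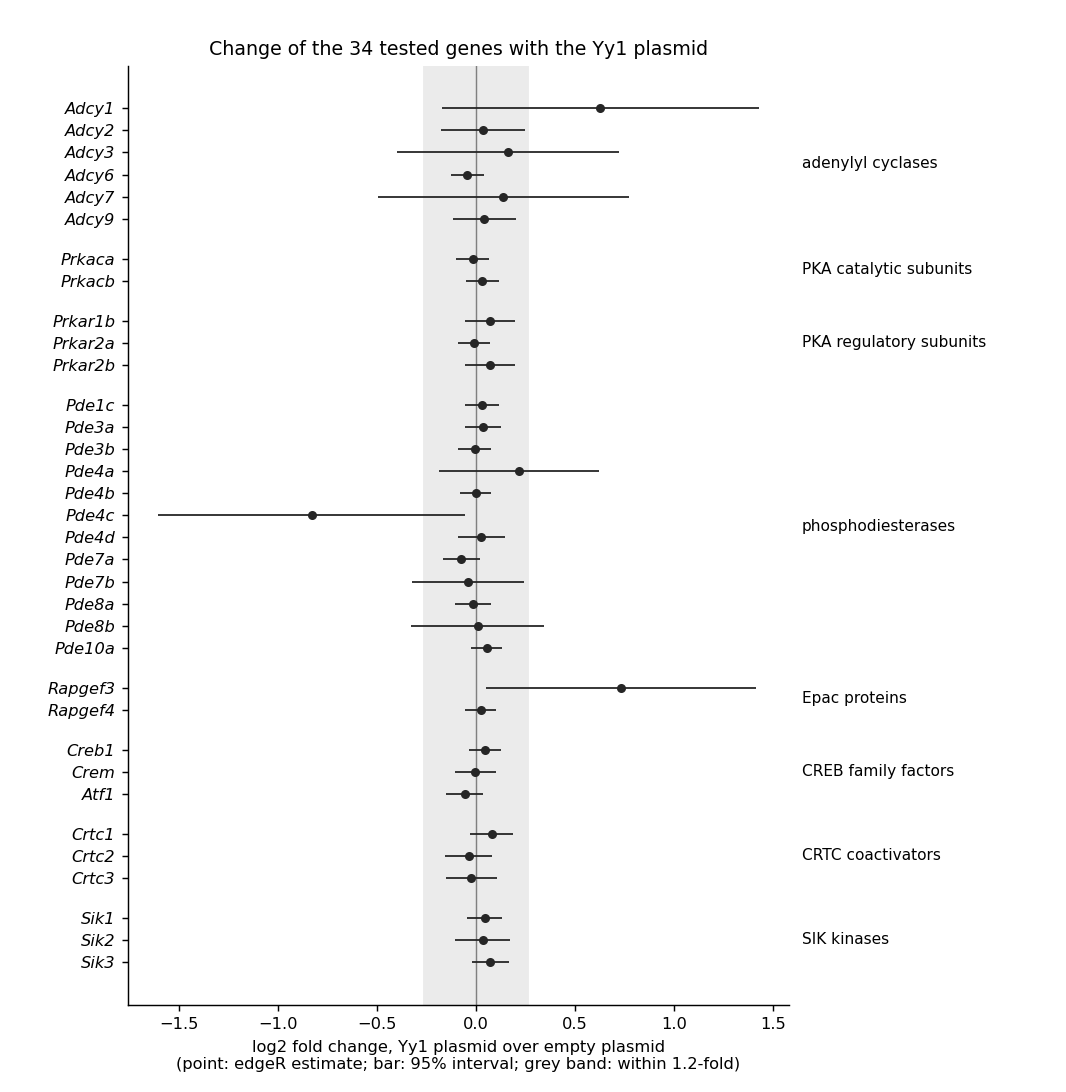
Log2 fold change with the Yy1 plasmid over the empty plasmid for the 34 tested genes, by family. Points are edgeR estimates, bars are 95% intervals and the grey band marks changes within 1.2-fold. The bars of 26 genes lie inside the band, and the wide bars belong to genes under 10 CPM, among them Rapgef3 and Pde4c, whose bars do not cross 0.

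The enzymes that make cAMP showed no call. The log2 fold change of Adcy6 was -0.04 (SE 0.0399, 95% interval -0.127 to 0.0389; edgeR adjusted p = 0.986). Adcy9 and Adcy2 both had 0.04, with intervals of -0.117 to 0.202 and -0.175 to 0.248. Adcy1 had 0.63 with an interval of -0.173 to 1.43, which its 6 to 16 counts per library leave too wide to read a direction from.

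For PKA, the log2 fold changes were -0.02 for Prkaca (95% interval -0.0990 to 0.0649), 0.03 for Prkacb (-0.0509 to 0.116) and -0.0090 for Prkar2a (-0.0893 to 0.0713). Prkar1b and Prkar2b both had 0.07, and their intervals reached 0.198. Each of these 5 genes overlapped between the groups, and edgeR's adjusted p was at least 0.980 for all of them.

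The 12 phosphodiesterases had 6 positive and 6 negative log2 fold changes. Pde1c had 0.03 (95% interval -0.0529 to 0.116), Pde3a 0.04 (-0.0532 to 0.129) and Pde3b -0.0061 (-0.0899 to 0.0777). Pde10a had 0.06 (-0.0229 to 0.133) and Pde7a had -0.07 (-0.166 to 0.0204), the widest departures from 0 among phosphodiesterases above 10 CPM. Pde4b had -0.00061 (-0.0787 to 0.0775). The signs of Pde3b and Pde4b, and that of Crem, turned positive with upper-quartile scaling.

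Pde4c, a minor member of the Pde4 group, had 23, 27, 8 and 14 counts in libraries 31 to 34 and 7, 16, 16 and 9 in libraries 45 to 48. Libraries 31 and 32 were the highest, and libraries 33 and 34 lay within the range of the Yy1 plasmid group in CPM. Its log2 fold change was -0.83 (SE 0.374, 95% interval -1.60 to -0.0525; edgeR adjusted p = 0.881).

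Rapgef3 had 9, 19, 10 and 9 counts in libraries 31 to 34 and 21, 27, 22 and 25 in libraries 45 to 48. In CPM, library 32 reached 0.715 and overlapped with libraries 45 and 47, at 0.644 and 0.662. The log2 fold change was 0.73 (SE 0.330, 95% interval 0.0485 to 1.42; edgeR adjusted p = 0.875). With single libraries left out it ranged from 0.55 without library 31 to 1.05 without library 32. Rapgef4, which holds nearly all Epac transcript, had 0.02 (95% interval -0.0544 to 0.104).

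At the nuclear end, Creb1 had a log2 fold change of 0.04 (95% interval -0.0371 to 0.126), Crem of -0.0033 (-0.108 to 0.101) and Atf1 of -0.06 (-0.152 to 0.0374). Crtc1 had 0.08, Crtc2 -0.04 and Crtc3 -0.02. The 3 SIK kinases were all positive, with 0.04 for Sik1, 0.03 for Sik2 and 0.07 for Sik3, and the smallest adjusted p among them was 0.953 (edgeR). The 6 members with the longer YY1 letters and at least 10 CPM had log2 fold changes from -0.06 for Atf1 to 0.08 for Crtc1.

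A further 104 genes of the pathway, listed by role, were examined in the same fit, and 76 of them were tested. EdgeR called 0 of these, with an unadjusted p under 0.05 for 6, in 5 cases with a higher and in 1 with a lower level in the Yy1 libraries, and DESeq2 and limma-voom also called 0. Over all 15916 genes edgeR called 0.515%, and 5.42% had an unadjusted p under 0.05, 3.23% higher and 2.19% lower. The libraries of the groups did not overlap for 2 of the 76, Akap12 and Gadd45b, against 3.95% of all genes. Across the 76, the log2 fold changes had a median of 0.02, with 49 positive and 27 negative, while 51.4% of all genes were negative. Of 15 tested PKA inhibitors and anchors, Pkia, which encodes a peptide inhibitor of the catalytic subunits, averaged 33.2 ± 1.26 CPM in the controls and 36.9 ± 2.29 CPM in the Yy1 libraries (SD, n = 4). Its log2 fold change was 0.15 (SE 0.0544, edgeR adjusted p = 0.598). Akap12, an anchoring protein, averaged 0.728 and 1.10 CPM, and its libraries did not overlap (log2 fold change 0.60, edgeR adjusted p = 0.766). Of 13 CREB and CRTC cofactors, 12 had a positive and 1 a negative log2 fold change, with a median of 0.02. The count of signs was not tested. Crebbp, the acetyltransferase that binds phosphorylated CREB, had 0.13 (SE 0.0564) and Hdac4, a deacetylase that SIK kinases control, had 0.05 (SE 0.0450).

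CREB target genes gave 12 positive and 9 negative log2 fold changes among 21 tested. Junb, an AP-1 subunit, had 36.7, 34.5, 33.1 and 36.1 CPM in libraries 31 to 34 and 36.3, 31.1, 29.4 and 27.1 CPM in libraries 45 to 48. Library 45 lay within the empty plasmid range, and the log2 fold change was -0.18 (SE 0.0724, edgeR adjusted p = 0.726). Gadd45b, a stress-induced regulator of kinases and DNA repair, averaged 5.10 ± 0.376 and 6.06 ± 0.471 CPM (SD, n = 4), and its libraries did not overlap (log2 fold change 0.25 with SE 0.108, edgeR adjusted p = 0.834). Of 9 G protein genes, Rgs2 had 0.05 and Ric8b -0.04. Among 10 tested receptors, Vipr1, a receptor for the peptide VIP, had 0.46 (SE 0.199) and Gipr, the receptor for the incretin GIP, had 0.30 (SE 0.191). In the other phosphodiesterases, Pde2a had -0.85 (SE 0.880) at under 1 CPM on average, and Pde6c had 0.11 (SE 0.176). The log2 fold change of Pde2a ranged from -1.74 without library 45 to -0.47 without library 33, and was -1.61 with limma-voom. The cAMP-sensitive channel Hcn2 had -0.10 (SE 0.0480).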

How the data were processed

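Per the labels' protocols, Trizol and column extraction was followed by poly(A) selection and directional library construction. Fastp, kallisto and the build GRCm39 are named in the submitters' processing notes. Versions and the step from transcripts to genes are not given in the sources used here. The authors deposited expected counts (estimated counts per gene, not scaled for depth), here rounded to whole numbers. All 8 columns were tied to samples through the labels' descriptions.

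Symbols and transcript lengths came from GENCODE mouse release M21, which is on an older build, so lengths are approximate, and RefSeq gave gene order. Genes with low counts were removed by filterByExpr at a minimum count of 10 and a total of 15. After TMM scaling the groups were compared in edgeR 4.0.16 under R 4.3.3 (glmQLFit and glmQLFTest, robust, two-sided), with Benjamini-Hochberg adjustment over all 15916 genes and a threshold of 0.05. SE is the log2 fold change divided by the square root of F. CPM uses TMM-scaled library sizes. Family shares and levels had no test.

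Alternatives were RLE, upper-quartile and unscaled library sizes, Yy1 left out before scaling, no filter, 1 CPM in at least 4 libraries, DESeq2 1.42.0, limma-voom (limma 3.58.1), thinning to the smallest depth, each library left out, and other lengths. The fit was tested on simulated data, with changes set only in genes at 4 CPM or more. It recovered 66.8% of 1.2-fold, 97% of 1.5-fold and 100% of 2-fold changes at the same threshold. Of its calls, 6.83% fell on unchanged genes. Pairs of replicates differed by more than sampling noise (chi-square per degree of freedom from 2.92 to 13.9), so none was counted as a copy.

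Members and lists were chosen with earlier results of these data known. Named were all members, Yy1, Gcg and, of each further list, the genes with an unadjusted p under 0.05 (up to 4), or the 2 with the smallest p where there were fewer, of which 1 gene is not reported here. Other names are said to be chosen after their values were seen or come from the marker lists or from the order of genes beside Prkar1a.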

Additional observations from a re-analysis of the deposited data

Results flagged for a closer look

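In 68 groups of 4 libraries, 1 for each tested member and plasmid, 1 had a library far from the others by Dixon's gap test, where about 1 in 20 groups, or 3.4, would be flagged by chance. Adcy2, a cyclase that G protein beta-gamma subunits stimulate, stood at 7.05 CPM in empty plasmid 34, against 6.32 to 6.42 CPM in the other 3 empty plasmid libraries. The Yy1 plasmid libraries spanned 5.77 to 7.49 CPM and so enclosed it.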

How the results depend on the processing

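Members called stayed at 0 in each of the 17 alternatives, and the smallest adjusted p among 571 refitted values of single members was 0.543. Further pathway genes called also stayed at 0, with a smallest adjusted p of 0.0551 without Yy1 plasmid 45. All genes called numbered 82, against 174 with no filter, 54 with the filter of 1 CPM and 65 to 87 with single libraries left out. Upper-quartile scaling changed the sign of Pde3b, Pde4b and Crem, whose log2 fold changes lie near 0, so that 24 members were positive and 10 negative. Other alternatives changed the sign of further members, such as Pde8b in 6 of the 17 and Sik2 in 1. With the longest transcripts, and then with no length, shares of the family with the empty plasmid, for the gene that leads with the median length, were 75.1% and 79.2% for Adcy6, 71.3% and 56.5% for Prkaca, 65.5% and 76% for Prkar2a, 29.3% and 35.3% for Pde1c, 28.2% and 55.5% for Creb1, and 72.7% and 66.9% for Sik1. Crtc2 held 34.2% with no length. Lengths enter by construction. No paired analysis was possible because the groups share no replicate numbers. Depth limits the 6 tested members under 2 CPM, whose intervals reach beyond 1.5-fold. With single libraries left out, the log2 fold change of Rapgef3 ranged from 0.55 without empty plasmid 31 to 1.05 without empty plasmid 32.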

Other observations

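Further genes at the head of the pathway, singled out after their values were seen, are given as levels only. The stimulatory G protein alpha subunit Gnas averaged 4716 CPM in the controls and 4766 CPM in the Yy1 libraries. The inhibitory subunit Gnao1, known from neurons and endocrine cells, averaged 628 and 624 CPM, and Gnai2 averaged 192 and 191 CPM. Of the 22 receptors listed, 12 did not pass the filter on low counts. Gcgr, the glucagon receptor, had 2 counts over all 8 libraries, and Glp1r, the receptor for the related incretin, had 17. Gpr119, a lipid receptor that couples to the stimulatory G protein, averaged 52.9 and 53.9 CPM, and the somatostatin receptor Sstr3, which couples to the inhibitory one, averaged 33.7 and 33.5 CPM. Of the 5 named here that were tested, edgeR called 0, beside 0.515% of all 15916 tested genes.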
